A study of Mus musculus with 6 samples.

Results

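The translation initiation and elongation factors are the proteins that bring messenger RNA, initiator tRNA and ribosomal subunits together and then move the ribosome along the message. They were taken as the protein-coding genes whose symbol starts with Eif1 to Eif6, Eef1 or Eef2, leaving out the eIF2 kinases (symbols starting Eif2ak), which gave 57 of the 19179 genes in the files. The libraries came from clones of 4T1, a metastatic mammary carcinoma line derived from a BALB/c mouse. Single cells had been grown for 14 days in wells of 96-well plates. In 3 libraries the tissue label was breast cancer stem cell (stem-labelled clones), and in the other 3 it was breast cancer cell (other clones). No drug or genetic change is named for either kind, and the labels do not say how a clone was assigned to its kind or how many clones went into a library. The protocol speaks of 10 clones of each kind and of 3 batches from 3 independent experiments, without tying a library to a batch. The p-values below therefore measure the spread between libraries, which may be partly technical.

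The stem-labelled libraries held 21196572 to 22838870 reads in genes, against 15357608 to 16830762 for the other clones. These came to 0.658 to 0.757 of the stem-labelled and 1.23 to 1.53 of the other library totals behind the authors' RPKM (reads per kilobase of gene, scaled to that total). All 5 epithelial markers reached 1 RPKM, and they summed to 913 to 1400 RPKM for the stem-labelled and 1872 to 3464 RPKM for the other clones. Krt19 ran from 0.0379 to 9.49 RPKM among the stem-labelled and from 16.7 to 96.1 RPKM among the other libraries, and Cdh1 from 59.8 to 77.8 and from 13.7 to 17.5 RPKM. Of 5 leukocyte markers the 2 in the files, Ptprc and Itgam, stayed at or below 0.00916 RPKM. Of 3 endothelial markers the 2 in the files, Pecam1 and Kdr, reached at most 0.0635 RPKM. Among 3 fibroblast markers Pdgfra stood at 1.64 to 3.34 against 0.396 to 0.929 RPKM, Dcn was listed at 0 in 5 libraries, and Lum was not analysed here. The adipocyte markers were not analysed here either.

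Initiation in mammalian cells begins when eIF4E binds the cap of a messenger RNA and the scaffold eIF4G joins it to the helicase eIF4A. A 43S complex of the small ribosomal subunit with eIF1, eIF1A, eIF3, eIF5 and the ternary complex of eIF2, GTP and initiator tRNA then scans to the start codon. The large subunit joins with eIF5B, eEF1A delivers aminoacyl-tRNA, eIF5A helps with difficult peptide bonds and eEF2 moves the ribosome by a codon. Cells restrain the process mainly through 4E-BP proteins, which hold eIF4E, and through phosphorylation of the eIF2 alpha subunit, which blocks the exchange factor eIF2B.

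Of the 57 factors, 54 passed the filter on low values (at least 1 RPKM in at least 3 of 6 libraries), and each of these 54 in fact reached 1 RPKM in all 6 libraries. Their levels ran from 1.17 to 6068 RPKM. In the stem-labelled clones 4 factors rose and 16 fell at an adjusted p under 0.05, and 34 did not pass. Over all 10097 genes tested, 29.9% were called higher and 25.4% lower, which makes 55.2% in all, so the share of factors called lower was near that of all genes and the share called higher was below it. Changes are log2 differences of RPKM + 1 (stem-labelled minus other) with their standard error. Their median over the factors was -0.33, against 0.11 over all genes tested. All 3 stem-labelled libraries lay above all 3 other libraries for 5 factors and below them for 20, while 35.7% and 27.8% of all genes did so. The 4 increases were all in the eIF4 group. Without replicate 2 of the stem-labelled clones 10 factors were called lower and 4 higher, where 21.9% and 25.6% of all genes were.

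The number of calls in each direction depended on the scale. No factor called on the deposited scale took the opposite call after the rescaling or the correction below. With each library rescaled to its own reads summed over genes, 23 factors were called higher and 5 lower, where 58.7% and 12.3% of all genes were (71% called in either direction). That rescaling moved the median of all genes to 0.86 and that of the factors to 0.54. Changes also followed gene length. Spearman's rho between length and change was 0.24 across the 54 factors and 0.49 across all genes tested, and these genes share libraries and depth. A correction of each library for gene length and GC content left 6 factors higher and 14 lower, with a median of -0.28. Over all genes 25.8% were then higher and 22% lower (47.8% in either direction), with a median of 0.07. Spearman's rho between length and corrected change was -0.26 across the factors and -0.03 across all genes tested. Among the factors the correction thus turned the sign of the length relation and did not remove it. Of the 4 factors that rose, 3 kept the call after the correction and 4 after the rescaling. Of the 16 that fell, 9 kept it after the correction and 5 after the rescaling. Each change below is on the deposited scale unless another is named, and whether length, GC content or the authors' library total contributed to a given change was not tested.

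**Figure D1:**
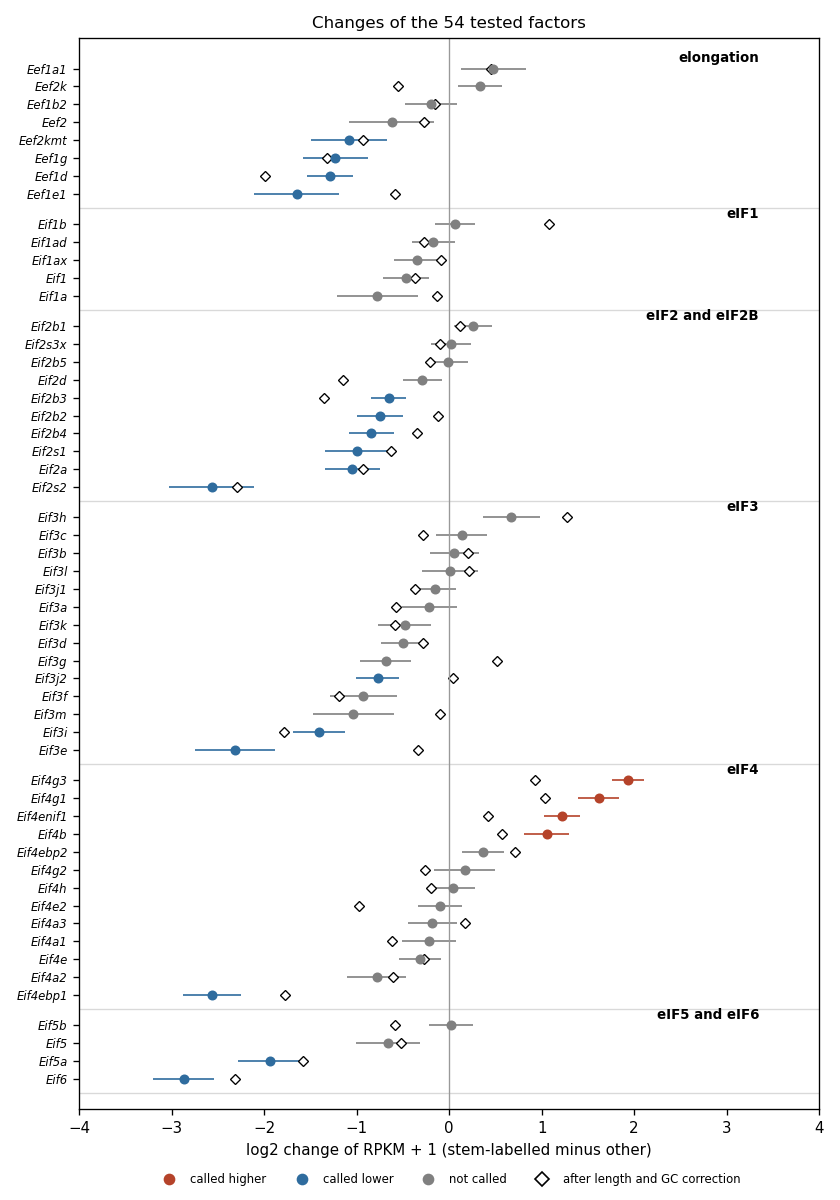
Log2 change of RPKM + 1 (stem-labelled minus other, horizontal axis) of the 54 tested factors, grouped by role, with bars for the standard error and open diamonds for the value after correction for length and GC content. The 4 factors called higher (red) are all in the eIF4 group, while the 16 called lower (blue) lie in every group but eIF1.

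Under the alternative settings and with any 1 library left out, 6 factors kept their call wherever they were tested. Eif4g1 and Eif4g3 were higher, and Eif6, Eif4ebp1, Eif5a and Eif2s2 were lower in the stem-labelled clones.

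In the eIF4 group, 4 of 13 tested members rose, 1 fell and 8 did not pass. The scaffold genes Eif4g1 and Eif4g3 rose, and so did the helicase cofactor gene Eif4b and Eif4enif1. The gene of the inhibitor 4E-BP1 fell. The genes of the cap-binding protein and of the helicase did not pass. Without replicate 3 of the stem-labelled or replicate 2 of the other clones 2 members were called lower, Eif4ebp1 and Eif4a2. With rescaling to summed reads 10 members were higher and 1 lower, and after the correction 4 were higher and 2 lower.

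Eif4g1 (ENSMUSG00000045983, chromosome 16, 20668313 to 20692884 on GRCm38) encodes the main scaffold that links cap, helicase and eIF3. It had 104, 88.3 and 104 RPKM in the stem-labelled libraries, against 26.8, 32.9 and 34.9 RPKM in the other libraries. The lowest stem-labelled value was 88.3 RPKM and the highest other value 34.9 RPKM, so the groups did not overlap, and the change was 1.62 ± 0.22 (adjusted p = 0.000404), or 1.04 after the correction. Eif4g3 (ENSMUSG00000028760, chromosome 4, 137993022 to 138208508) encodes a second scaffold that can stand in for eIF4G1. It had 7.2, 7.22 and 8.03 RPKM in the stem-labelled libraries and 1.17, 1.25 and 1.22 RPKM in the other libraries. The groups were far apart relative to the spread within either, with a change of 1.94 ± 0.17 (adjusted p = 0.000117), or 0.93 after the correction. It was named after its values were seen, since its mean lay under the 5 RPKM that the naming rule asked for. Eif4g3 is also the longest factor, at 11063 bases. Eif4g2 encodes DAP5, a scaffold relative without the eIF4E-binding region. It had 31.5, 28.4 and 56.1 RPKM in the stem-labelled libraries and 44.1, 22.4 and 35.6 RPKM in the other libraries, so the groups overlapped. Its change of 0.17 ± 0.33 did not pass (adjusted p = 0.686), and it turned negative without replicate 3 of the stem-labelled clones (-0.13) or replicate 2 of the other clones (-0.10).

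Eif4b, whose product stimulates the eIF4A helicase, had 118, 110.1 and 118 RPKM in the stem-labelled libraries, against 48.9, 71.7 and 47.2 RPKM in the other libraries. The groups did not overlap, and it rose by 1.05 ± 0.25 (adjusted p = 0.00552), or by 0.57 after the correction (adjusted p = 0.0362). Eif4enif1 encodes 4E-T, which carries eIF4E into the nucleus and into processing bodies. It had 9.07, 7.72 and 9.76 RPKM in the stem-labelled libraries and 3.57, 3.38 and 2.70 RPKM in the other libraries. Its lowest stem-labelled value was above its highest other value, with a change of 1.22 ± 0.19 (adjusted p = 0.000792), but the correction left 0.42 (adjusted p = 0.0694). Eif4h, whose product acts like eIF4B, averaged 85.7 ± 16.0 RPKM in the stem-labelled and 82.3 ± 3.36 RPKM in the other clones (SD, n = 3 each), a change of 0.04.

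Eif4ebp1 (ENSMUSG00000031490, chromosome 8, 27260329 to 27276674) encodes 4E-BP1, which binds eIF4E and keeps it from eIF4G until mTORC1 phosphorylates it. It had 126, 138 and 91.0 RPKM in the stem-labelled libraries, against 625, 969 and 556 RPKM in the other libraries. All stem-labelled values were well below all other values, and Eif4ebp1 fell by 2.56 on the log2 scale (SE 0.32, adjusted p = 0.000261). The change was -1.77 after the correction and -1.63 on rescaling. Its relative Eif4ebp2 had 37.3, 31.3 and 25.2 RPKM in the stem-labelled libraries and 19.9, 25.2 and 26.7 RPKM in the other libraries. Those groups overlapped and the change of 0.37 ± 0.23 did not pass (adjusted p = 0.203), though it was called higher after the correction (0.72, adjusted p = 0.00890) and on rescaling (1.27, adjusted p = 0.000592). The third gene, Eif4ebp3, had 3 reads over the stem-labelled and 0 over the other libraries, too few to test.

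Eif4e, the gene of the cap-binding protein itself, had 9.95, 11.8 and 13.9 RPKM in the stem-labelled libraries and 13.4, 13.1 and 18.7 RPKM in the other libraries. The values overlapped, with a change of -0.31 ± 0.22 (adjusted p = 0.258). Eif4a1, the main helicase gene, had 292, 248 and 197 RPKM in the stem-labelled libraries and 223, 316 and 318 RPKM in the other libraries. These overlapped as well (-0.22 ± 0.29, adjusted p = 0.543), and 33.3% of the 50-base stretches of Eif4a1 also occur in another annotated gene. Its paralog Eif4a2 had 8.55, 13.1 and 20.1 RPKM in the stem-labelled libraries, against 23.6, 17.4 and 30.9 RPKM in the other libraries. The groups overlapped in 1 library of each kind and the change of -0.78 ± 0.32 missed the threshold (adjusted p = 0.0630). It passed without replicate 3 of the stem-labelled clones, at -1.07 (adjusted p = 0.0248), and without replicate 2 of the other clones (-0.99, adjusted p = 0.0356). A fit of limma-voom on reads also called it lower (adjusted p = 0.0261). Eif4a3, an eIF4A relative in the exon junction complex, and Eif4e2, which encodes the cap-binding repressor 4EHP, did not pass (-0.18 and -0.10). On rescaling both were called higher (0.75 and 0.77), and after the correction Eif4e2 was called lower (-0.98, adjusted p = 0.0102).

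**Figure D2:**
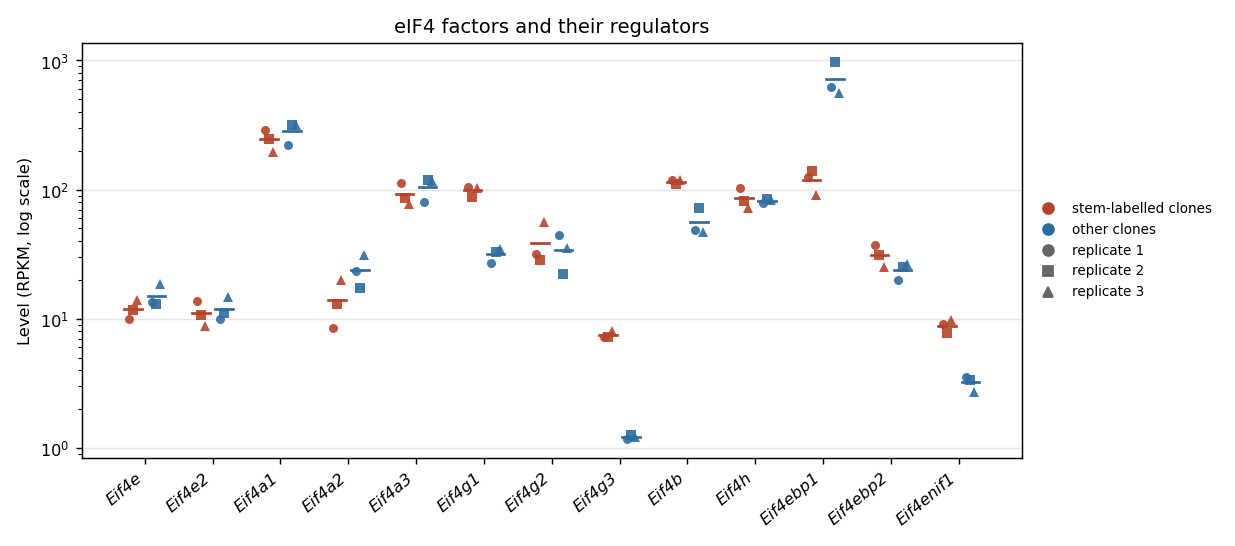
Levels of the 13 tested eIF4 factors and regulators (RPKM, log axis) in each library, stem-labelled clones in red and other clones in blue, with symbols for the replicate number and a line for the group mean. The red and blue points of Eif4g1, Eif4g3, Eif4b, Eif4enif1 and Eif4ebp1 do not overlap.

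Log2 ratios of RPKM + 1 were taken between related genes in the same library. They depend little on the scaling between libraries where both genes lie well above 1 RPKM. The ratio of Eif4ebp1 to Eif4ebp2 was 1.88 ± 0.20 for stem-labelled clones and 4.82 ± 0.45 for the other clones (SD, n = 3 each), a difference of -2.93. The ratio of Eif4g1 to Eif4g2 was 1.39 ± 0.45 for stem-labelled and -0.06 ± 0.62 for other clones, a difference of 1.45. In both pairs, and in Eif5a over Eif5a2, the groups did not overlap, which gave an exact permutation p = 0.1, the smallest that 3 libraries against 3 allow (two-sided, adjusted p = 0.167 over 5 pairs). Eif5a2 lay at 0.307 to 1.13 RPKM, so its ratio depends on the added 1 and on the scale. Without the added 1, the ratios of Eif5a to Eif5a2 overlapped between the groups. The ratios of Eif4a1 to Eif4a2 and of Eif4e to Eif4e2 overlapped between the groups, with exact permutation p of 0.4 and 0.6. Paralogs that differ in length were not corrected for it here.

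The E-box CACGTG is the hexamer bound by MYC and by other helix-loop-helix factors such as USF and TFE3, and Eif4e is a textbook MYC target. It was looked for in RefSeq promoter windows (GRCm38.p6, 250 bases before to 50 after each listed start), where it reads the same on both strands. A window was at hand for 45 of the 57 factors, and 12 of them (26.7%) held the hexamer, against 12.4% of the protein-coding genes tested that had a window and 8.09% of all genes with one. Starts in the table are those of RefSeq transcripts and may lie some bases from the start used in these cells. The sites of the called factors, 1 of 2 sites of Eif4e and the site of Eef2 are shown, since these factors are among those described most closely, 5′ to 3′ along the gene's strand, with the hexamer in capitals.
Eif4g1, plus strand, chr16:20672661-20672690: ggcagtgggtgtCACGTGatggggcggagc
Eif4g1, plus strand, chr16:20672730-20672759: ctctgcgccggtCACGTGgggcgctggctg
Eif5a, minus strand, chr11:69921443-69921472: aaggggcggggtCACGTGtgtgcgtcatcc
Eif5a, minus strand, chr11:69920791-69920820: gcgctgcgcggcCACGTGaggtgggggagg
Eif4e, plus strand, chr3:138527192-138527221: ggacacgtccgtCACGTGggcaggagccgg
Eef2, plus strand, chr10:81176576-81176605: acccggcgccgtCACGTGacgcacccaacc
Of the 11 tested factors with the hexamer, 1 rose (Eif4g1) and 1 fell (Eif5a), with a median change of -0.22. Of the 32 tested factors whose window lacked it, 3 rose and 7 fell, with a median of -0.19. Tested factors without a window, among them the lowered Eif6, Eif4ebp1 and Eif3e, are in neither count, so many of the factors called lower are not covered. A match is a run of letters and not a bound site.

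In the eIF5 and eIF6 group, 2 of 4 tested members fell, Eif5a and Eif6, and 0 rose. After the correction 3 were called lower and 0 higher, and on rescaling 2 were lower and 1 higher. Eif5a (ENSMUSG00000078812, chromosome 11, 69916714 to 69921958) encodes a protein that carries the amino acid hypusine and relieves ribosomes that stall on proline runs. It had 633, 511 and 349 RPKM in the stem-labelled libraries, against 1643, 1650.4 and 2335 RPKM in the other libraries. Every stem-labelled value lay below every other value, and Eif5a fell by 1.93 on the log2 scale (SE 0.35, adjusted p = 0.00161). The change was -1.58 after the correction and -0.99 on rescaling. The tissue-restricted relative Eif5a2 had 0.307, 0.413 and 0.982 RPKM in the stem-labelled libraries, against 0.885, 0.623 and 1.13 RPKM in the other libraries. It overlapped between the groups and lay under the filter, so it got no test.

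The enzymes that make hypusine moved the same way as Eif5a. Dhps, the deoxyhypusine synthase that acts first, had 8.40, 8.58 and 6.57 RPKM in the stem-labelled libraries and 49.6, 52.8 and 42.8 RPKM in the other libraries. Dohh, the hydroxylase that finishes the residue, had 49.3, 47.9 and 25.9 RPKM in the stem-labelled libraries, against 595, 323 and 498 RPKM in the other libraries. In both genes the groups were several-fold apart. Dhps changed by -2.48 ± 0.21 (adjusted p = 0.000117) and Dohh by -3.5 ± 0.34 (adjusted p = 0.000131), with -2.03 and -2.89 after the correction. Both calls held in the 10 other settings and with each library left out. In the list of 9 hypusine and diphthamide enzymes, 3 fell, 0 rose and 6 did not pass. The third was Dph1, which starts the diphthamide residue of eEF2 (-1.56 ± 0.24, adjusted p = 0.000640), while Dph2, its partner, changed by 0.12. After the correction 2 of these 9 were called higher and 4 lower, and on rescaling 5 higher and 3 lower. Without replicate 2 of the other clones Dph7, another diphthamide enzyme gene, was called higher (0.73, adjusted p = 0.0229) and Dph3 lower (-0.68, adjusted p = 0.035).

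Eif6 (ENSMUSG00000027613, chromosome 2, 155819832 to 155826925) had the largest decrease of the 54 factors. Its product binds the large ribosomal subunit, where it is needed for subunit maturation and keeps it from joining the small subunit too early. Eif6 had 74.9, 68.8 and 43.7 RPKM in the stem-labelled libraries, against 665, 364 and 381 RPKM in the other libraries. The nearest values of the groups were 74.9 and 364 RPKM, and the change was -2.87 ± 0.33 (adjusted p = 0.000202), or -2.31 after the correction and -1.94 on rescaling. Gm16098, on the opposite strand, overlaps an exon of Eif6, and whether counting used strand is not given in the sources used here. Eif5, whose product makes eIF2 hydrolyse its GTP, averaged 25.8 ± 14.2 RPKM in the stem-labelled and 38.6 ± 8.81 RPKM in the other clones. The change of -0.66 did not pass (adjusted p = 0.134), and without replicate 3 of the stem-labelled clones it was called lower at -1.06 (adjusted p = 0.0131). Eif5b, the gene of the subunit joining GTPase, averaged 4.66 ± 1.07 RPKM in the stem-labelled and 4.63 ± 1.26 RPKM in the other clones. Its change was 0.02, or -0.19 without replicate 3 of the other clones and -0.13 without replicate 3 of the stem-labelled clones, and the correction turned it to -0.59 (adjusted p = 0.0381).

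**Figure D3:**
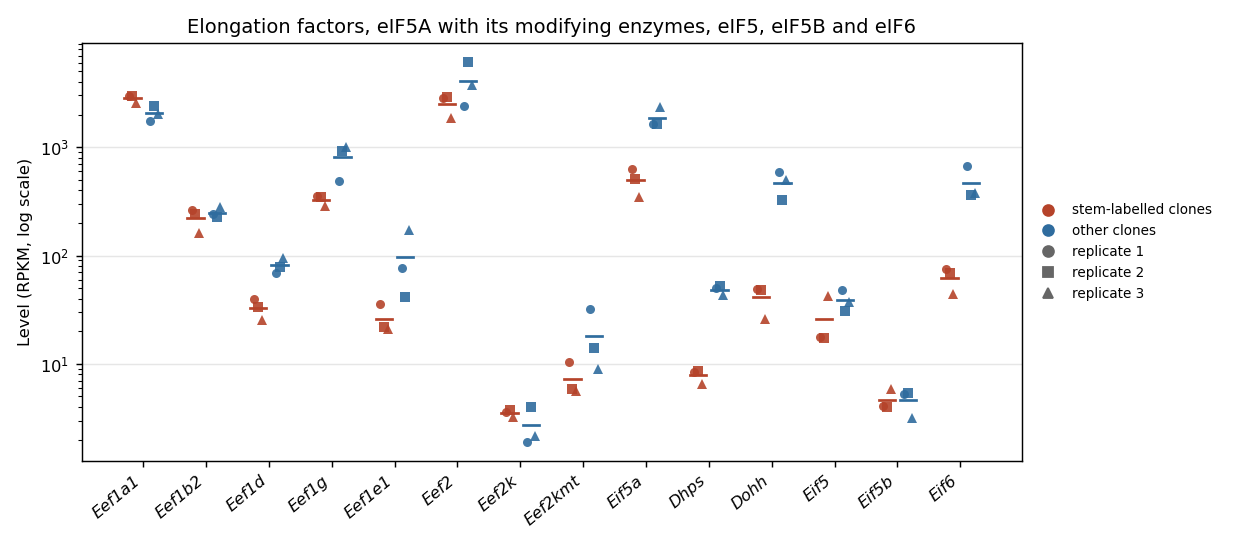
Levels (RPKM, log axis) of the elongation factors, of Eif5a with the hypusine enzymes Dhps and Dohh, and of Eif5, Eif5b and Eif6 in each library, stem-labelled clones in red and other clones in blue, with a line for the group mean. Eif5a, Dhps, Dohh and Eif6 are separated, while Eef2, Eef1b2 and Eif5b overlap.

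Among the 8 elongation factor genes and regulators, 4 fell, 0 rose and 4 did not pass. After the correction 3 were called lower, and on rescaling 3 were called higher and 0 lower. Without replicate 3 of the stem-labelled clones 2 were called lower, and without replicate 2 of the other clones 1 was called higher. Eef1a1 and Eef2 were by far the most abundant, and together they took 56.9%, 59.3% and 55.2% of the reads of all 57 factors in the stem-labelled libraries, against 40.7%, 56.5% and 41.9% in the other libraries. Eef1a1, whose product delivers aminoacyl-tRNA, had 2998, 2956 and 2569.8 RPKM in the stem-labelled libraries and 1758, 2378 and 2009.5 RPKM in the other libraries. The groups did not overlap, but the change of 0.48 ± 0.36 did not pass (adjusted p = 0.275), and on rescaling it was 1.42 (adjusted p = 0.00274). Pseudogene copies share much of Eef1a1, with 59.2% of its 50-base stretches found in another annotated gene. Eef2, the translocase gene, had 2828, 2888 and 1840.2 RPKM in the stem-labelled libraries, against 2404, 6068 and 3762 RPKM in the other libraries. The lowest other library fell within the stem-labelled values, and the change of -0.62 ± 0.46 did not pass (adjusted p = 0.271). Leaving out replicate 3 of the stem-labelled clones gave -0.41, and leaving out replicate 1 or 2 of the other clones gave -0.95 or -0.28, none of which passed.

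The exchange complex eEF1B reloads eEF1A with GTP. Of its subunit genes Eef1g and Eef1d were called and Eef1b2 was not, and a test between them was not run. The structural subunit gene Eef1g had 355, 345 and 285 RPKM in the stem-labelled libraries and 487, 925 and 1004 RPKM in the other libraries. Eef1d, a nucleotide exchange subunit gene, had 39.8, 33.6 and 25.3 RPKM in the stem-labelled libraries, against 69.3, 78.4 and 95.8 RPKM in the other libraries. Neither gene overlapped between the groups, and they changed by -1.23 ± 0.35 and -1.29 ± 0.25 (adjusted p = 0.0144 and 0.00222). The changes were -1.32 and -1.99 after the correction but -0.29 and -0.36 on rescaling, where neither was called. Of the stretches of Eef1g, 64.3% are shared with pseudogenes. Eef1b2, the other exchange subunit gene, had 261, 241 and 162 RPKM in the stem-labelled libraries and 239, 227 and 282 RPKM in the other libraries. These values overlapped, with a change of -0.19 ± 0.28 (adjusted p = 0.579) that was 0.02 without replicate 3 of the stem-labelled clones.

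Eef1e1 encodes AIMP3, a small scaffold protein of the multi-tRNA synthetase complex. It had 35.4, 21.9 and 20.9 RPKM in the stem-labelled libraries, against 76.3, 41.7 and 170.2 RPKM in the other libraries. The groups did not overlap, though the other libraries spread widely, and the change was -1.65 ± 0.45 (adjusted p = 0.0125). It missed the threshold with replicate 3 of the stem-labelled clones left out, at -1.52 (adjusted p = 0.0539). The call was also lost after the correction (-0.59, adjusted p = 0.2) and on rescaling (-0.73, adjusted p = 0.0990). Eef2k, the kinase that inhibits eEF2, had 3.63, 3.75 and 3.23 RPKM in the stem-labelled libraries and 1.91, 4.04 and 2.16 RPKM in the other libraries. It overlapped through replicate 2 of the other clones and did not pass (0.33 ± 0.24, adjusted p = 0.252). Without that library it was called higher (0.58, adjusted p = 0.0334), and after the correction lower (-0.55, adjusted p = 0.0439). Eef2kmt, which methylates eEF2, passed narrowly at -1.08 ± 0.41 (adjusted p = 0.0479). It was not called after the correction (-0.93, adjusted p = 0.0920) or on rescaling (-0.23, adjusted p = 0.603). It overlapped between the groups and was lost with replicate 1 or 2 of the other clones left out (-0.61 and -1.17, with adjusted p of 0.14 and 0.0633), or with replicate 2 or 3 of the stem-labelled clones left out (-0.97 and -0.94, with adjusted p of 0.127 and 0.151).

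Of the 10 tested members of the eIF2 and eIF2B group, 6 fell and 4 did not pass. After the correction 4 were called lower, and on rescaling 3 were called higher and 1 lower. Only 2 or 3 were called lower without any 1 of the stem-labelled libraries or replicate 3 of the other clones. The lower member on rescaling was Eif2s2 (ENSMUSG00000074656, chromosome 2, 154871410 to 154892935), which encodes the beta subunit of eIF2, the contact for eIF5 and eIF2B. Eif2s2 had 5.40, 9.30 and 7.88 RPKM in the stem-labelled libraries, against 40.9, 25.3 and 109 RPKM in the other libraries. The nearest values were 9.30 and 25.3 RPKM, and the change was -2.57 ± 0.46 (adjusted p = 0.00142), or -2.30 after the correction and -1.68 on rescaling. At 6755 bases it is among the 18 longest factors.

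Eif2s1 encodes the alpha subunit, whose phosphorylation shuts down initiation under stress. It had 20.4, 21.4 and 24.2 RPKM in the stem-labelled libraries and 39.1, 29.0 and 79.7 RPKM in the other libraries. The groups did not overlap, and it was called lower at -1 ± 0.34 (adjusted p = 0.0311). The call was lost without any of the 3 stem-labelled libraries (-1.07 to -0.95, adjusted p = 0.0644 to 0.0819), without replicate 3 of the other clones (-0.59, adjusted p = 0.0802), after the correction (-0.62) and on rescaling (-0.09). Eif2s3x, the X-linked gamma subunit gene, averaged 15.7 ± 3.58 RPKM in the stem-labelled and 15.2 ± 1.46 RPKM in the other clones and did not pass (0.02, adjusted p = 0.946). Its Y-linked partner Eif2s3y had 0 reads over the stem-labelled and 6 over the other libraries, all in replicate 1, too few to test. The 3 subunits of 1 complex thus showed changes of -2.57, -1 and 0.02. A test between them was not run.

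The exchange factor eIF2B has 5 subunit genes. Eif2b2, Eif2b3 and Eif2b4 (beta, gamma and delta) were called lower, with changes of -0.75, -0.65 and -0.84 and adjusted p of 0.0295, 0.0168 and 0.0153. Eif2b1 (alpha) and the catalytic Eif2b5 (epsilon) changed by 0.26 and -0.02 and did not pass. Each of the 3 calls was lost on rescaling, where the changes were 0.17, 0.05 and 0.04, and only Eif2b3 kept it after the correction (-1.35). Leaving out single libraries ended the calls too. Eif2b2 missed the threshold without replicates 1 or 3 of the stem-labelled clones or 2 or 3 of the other clones (-0.81 to -0.58), Eif2b3 without replicates 2 or 3 of the stem-labelled or 3 of the other clones (-0.62 to -0.57), and Eif2b4 without replicates 2 or 3 of the stem-labelled clones (-0.83 and -0.70). The non-canonical initiator tRNA factor Eif2a averaged 5.48 ± 2.93 RPKM in the stem-labelled and 11.6 ± 0.808 RPKM in the other clones. The groups did not overlap and it was called lower (-1.05 ± 0.30, adjusted p = 0.0143), but not with replicate 1 or 2 of the stem-labelled clones left out (-0.78 and -0.96, with adjusted p of 0.0578 and 0.0512). Eif2d, a related factor, did not pass (-0.29, adjusted p = 0.270), and after the correction it was called lower (-1.15, adjusted p = 0.00159).

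Of 9 genes for the kinases and phosphatase of the eIF2 alpha subunit, 4 rose, 2 fell and 3 did not pass. After the correction 2 were higher and 2 lower, and on rescaling 6 were higher and 1 lower. Ppp1r15b, the constitutive targeting subunit of the phosphatase, had 15.0, 12 and 16.8 RPKM in the stem-labelled libraries, against 3.60, 3.45 and 4.12 RPKM in the other libraries. It rose by 1.71 ± 0.20 (adjusted p = 0.000216), or by 1.01 after the correction, with no overlap. The stress-induced counterpart Ppp1r15a did not pass (-0.22, adjusted p = 0.467). Ppp1ca, a catalytic subunit gene that serves many other complexes, averaged 365 ± 81.0 RPKM in the stem-labelled and 1355 ± 174 RPKM in the other clones (-1.90 ± 0.31, adjusted p = 0.000930). Another catalytic subunit gene, Ppp1cc, went the other way, at 43.1 ± 4.92 against 21.4 ± 1.08 RPKM (0.98 ± 0.20, adjusted p = 0.00318). After the correction Ppp1cc was still called higher (0.60, adjusted p = 0.0204), and it kept the call in 9 of the 10 other settings. The list had 1 gene lower without replicates 1 or 2 of the stem-labelled or 1 or 3 of the other clones, since Ppp1cb was then lost. Of the kinases, Eif2ak3 (PERK, which senses the endoplasmic reticulum) was called higher at 2.34 ± 0.478 against 0.605 ± 0.123 RPKM, but its libraries from the other clones were all under 1 RPKM and the correction left 0.29.

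In the eIF3 complex, the large scaffold of the 43S complex, 3 of 14 subunit genes fell and 11 did not pass. After the correction 1 was higher and 2 lower, and on rescaling 4 were higher and 1 lower. Without replicate 1 of the other clones 5 were called lower, and limma-voom called 7. Eif3e, known in mouse as Int6, an integration site of mouse mammary tumour virus, had 156, 169 and 136 RPKM in the stem-labelled libraries. In the other libraries it had 658, 441 and 1539.6 RPKM, so that the groups did not overlap and replicate 3 of the other clones stood highest. The change of -2.31 ± 0.43 (adjusted p = 0.00181) was kept without that library but shrank to -0.34 after the correction (adjusted p = 0.328). Its transcript has a GC content of 36.2%, the lowest of the tested factors. Eif3i had 64.9, 54.5 and 36.8 RPKM in the stem-labelled libraries, against 119, 127 and 168 RPKM in the other libraries. It did not overlap, and the change of -1.41 ± 0.28 (adjusted p = 0.00244) became -1.79 after the correction and -0.48 on rescaling.

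Eif3j2 shares 90.8% of its stretches with its near copy Eif3j1, so reads cannot be assigned between them with confidence. It passed at -0.77 (adjusted p = 0.0193), was 0.05 after the correction and was lost without replicates 1 or 2 of the stem-labelled clones (-0.76 and -0.65) or 1 or 3 of the other clones (-0.67 and -0.68). Eif3j1 changed by -0.16 and did not pass. Eif3a, the gene of the largest subunit, had 33.1, 26.5 and 54 RPKM in the stem-labelled libraries and 50.8, 43.9 and 33.6 RPKM in the other libraries. Its values overlapped and the change of -0.21 ± 0.30 was 0.01 without replicate 2 of the stem-labelled clones. The core genes Eif3b and Eif3c and the peripheral Eif3l changed by 0.06, 0.13 and 0.01, all within the spread between libraries. On rescaling these genes were called higher (0.99, 1.06 and 0.95, with adjusted p of 0.00684, 0.00917 and 0.0159). Eif3h had the highest level of the complex in the stem-labelled clones, 463 ± 93.1 RPKM against 292 ± 71.6 RPKM in the other clones. It did not pass (0.67 ± 0.31, adjusted p = 0.0921), but was called higher after the correction (1.27, adjusted p = 0.00236). The groups did not overlap in Eif3d, Eif3f and Eif3g. Eif3d, Eif3f, Eif3g and Eif3m were not called (-0.50, -0.93, -0.69 and -1.04). They were called lower without replicate 1 (-0.67, -1.26 and -0.86 for Eif3d, Eif3f and Eif3g) or replicate 2 (-1.51 for Eif3m) of the other clones. After the correction Eif3f was called lower as well (-1.19, adjusted p = 0.0116). Eif3k changed by -0.48 and did not pass.

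**Figure D4:**
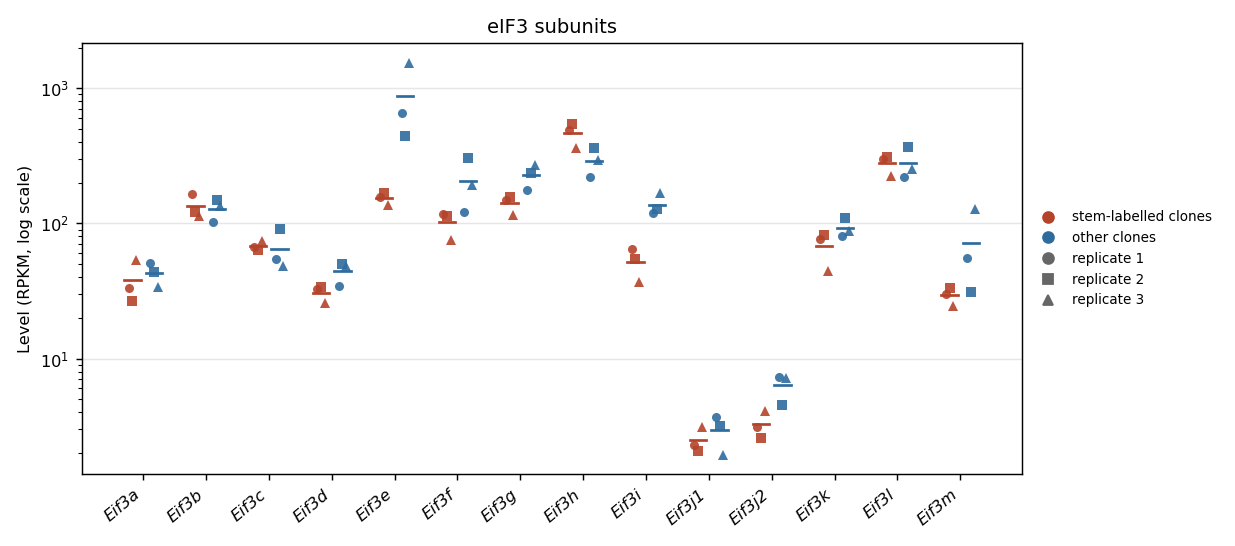
Levels of the 14 eIF3 subunit genes (RPKM, log axis) in each library, stem-labelled clones in red and other clones in blue, with a line for the group mean. Eif3d, Eif3e, Eif3f, Eif3g, Eif3i and Eif3j2 are separated, Eif3l and Eif3b have nearly equal means, and Eif3h has its higher mean in the stem-labelled clones.

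The factors eIF1 and eIF1A guard the choice of start codon. None of the 5 tested genes of the eIF1 group was called in limma. At an unadjusted p under 0.05 the count was also 0, and limma-voom called 0. Without replicate 2 of the other clones 1 was called lower. Eif1 had 156, 150.5 and 139 RPKM in the stem-labelled libraries, against 225, 176 and 219 RPKM in the other libraries. Its groups did not overlap, yet the change of -0.47 ± 0.24 did not pass (adjusted p = 0.132), and it was 0.47 on rescaling. Eif1a and Eif1ax, autosomal and X-linked genes of eIF1A, changed by -0.78 and -0.34 and did not pass. Eif1a was called lower without replicate 2 of the other clones (-1.32, adjusted p = 0.00638). Eif1ad did not pass either (-0.17). On rescaling 2 of the 5 genes were called higher, Eif1ad (0.71, adjusted p = 0.0189) and Eif1b (0.98, adjusted p = 0.00341). Eif1b, a near copy of eIF1, averaged 36.6 ± 4.91 RPKM in the stem-labelled and 34.9 ± 3.34 RPKM in the other clones. It changed by 0.06, and by 1.08 after the correction (adjusted p = 0.00248). At 917 bases it is the shortest tested factor.

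Some factors are encoded by messages with a terminal oligopyrimidine tract, through which mTORC1 and LARP1 control their translation together with the ribosomal proteins. Of the 9 such factors tested, 1 rose (Eif4b), 3 fell (Eef1d, Eef1g and Eif3e) and 5 did not pass, with a median of -0.62. On rescaling 4 were higher and 1 lower. Eef1a2 belongs to the same list and was not analysed here. Among 85 tested genes of cytosolic ribosomal proteins, 67 were lower, 0 were higher and 18 were not called, with a median of -1.97, which was -1.14 after the correction and -1.03 on rescaling. Their median length of 1498 bases was below the 3154 bases of the factors. Ribosomal protein genes took 9.05 ± 1.64% of the stem-labelled and 21.9 ± 3.94% of the other reads. The 57 factors took 3.77%, 3.66% and 3.33% of reads in the stem-labelled libraries, against 2.06%, 3.55% and 2.60% in the other libraries. Their shares overlapped through replicate 2 of the other clones. As these are bulk libraries, fewer cells of a kind and less RNA per cell cannot be told apart.

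Among 11 mTORC1 and cap kinase genes, 4 rose, 2 fell and 5 did not pass. On rescaling 9 were higher and 1 lower, and after the correction 2 were higher and 2 lower. Rptor, the subunit that brings 4E-BP1 and S6 kinase to mTOR, had 11.2, 7.88 and 8.83 RPKM in the stem-labelled libraries, against 2.39, 2.45 and 1.84 RPKM in the other libraries. It rose by 1.67 ± 0.20 (adjusted p = 0.000251), or by 1.19 after the correction, without overlap. Akt1s1, whose product PRAS40 inhibits mTORC1, had 43.8, 42.2 and 31.3 RPKM in the stem-labelled libraries and 284, 150 and 154 RPKM in the other libraries. The nearest values were 43.8 and 150 RPKM, and it changed by -2.24 ± 0.31 (adjusted p = 0.000395). The eIF4E kinase genes differed in sign, with Mknk1 higher (0.72 ± 0.17, adjusted p = 0.00610) and Mknk2 lower (-1.20 ± 0.30, adjusted p = 0.00785). Mknk1 was not called after the correction (0.25, adjusted p = 0.205), nor Mknk2 on rescaling (-0.27, adjusted p = 0.441). Mtor itself passed at 0.57 ± 0.18 (adjusted p = 0.0215), but was -0.14 after the correction and was lost without replicates 1 or 2 of the stem-labelled clones (0.55 and 0.56). Tsc1, an inhibitor of the pathway, was called higher (1.48 ± 0.19) with all its libraries from the other clones under 1 RPKM, while its partner Tsc2 did not pass (0.46) but was called higher with replicate 2 of the other clones left out (0.75, adjusted p = 0.0145).

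Of 10 genes for poly(A)-binding and other cap-region proteins, 3 rose, 1 fell and 6 did not pass, and on rescaling 7 were higher and 0 lower. The member that fell was the helicase gene Ddx3x (-1.19, adjusted p = 0.0253), which was lost without replicates 1 or 2 of the stem-labelled or 1 of the other clones (-1.02 to -0.90). Larp4, which binds poly(A) tails, was also called lower without replicate 3 of the stem-labelled (-0.86) or 2 of the other clones (-0.75). Larp1, the repressor of oligopyrimidine messages, had 34.1, 22.3 and 28.7 RPKM in the stem-labelled libraries and 8.97, 9.61 and 7.72 RPKM in the other libraries. It rose by 1.57 ± 0.22 (adjusted p = 0.000459), or by 0.96 after the correction. Paip2b, an inhibitor of poly(A)-binding protein, passed narrowly (0.54, adjusted p = 0.0466) and kept the call in 1 of 6 fits with a library left out (0.39 to 0.59 in the 5 that lost it), with -0.11 after the correction. Pabpc4 rose by 0.89 ± 0.24 (adjusted p = 0.0105), while Pabpc1, the major poly(A)-binding protein gene, averaged 417 ± 52.4 RPKM in the stem-labelled and 378 ± 127 RPKM in the other clones and did not pass.

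Of 5 termination and recycling genes tested, 3 fell and 2 did not pass. After the correction 3 were called lower, and on rescaling 2 were higher and 1 lower. Mcts1, which with DENR removes tRNA from the small subunit after termination, had 8.98, 10.4 and 7.35 RPKM in the stem-labelled libraries and 77.7, 35.1 and 85.2 RPKM in the other libraries. The nearest values were 10.4 and 35.1 RPKM, with a change of -2.67 ± 0.33 (adjusted p = 0.000275). Denr itself changed by -1.08 ± 0.22 (adjusted p = 0.00309), and by -0.27 on rescaling. The ribosome splitting ATPase gene Abce1 was lower (-1.14 ± 0.34, adjusted p = 0.0168), but missed the threshold with replicate 1 or 2 of the stem-labelled clones left out (-0.84 and -1.05, with adjusted p of 0.0651 and 0.0584). It was not called on rescaling (-0.25, adjusted p = 0.543), with upper-quartile scaling or with no filter. The release factor genes Etf1 and Gspt1 changed by 0.19 and -0.03 and did not pass. Of 8 mitochondrial translation factor genes tested, 2 fell, the elongation factors Tufm (-1.53 ± 0.24, adjusted p = 0.000734) and Tsfm (-1.04 ± 0.26, adjusted p = 0.00777), and 6 did not pass. On rescaling 5 of the 8 were called higher and 0 lower. Without replicate 2 of the other clones the recycling factor gene Mrrf was called higher (0.64) and the release factor gene Mtrf1 lower (-0.60).

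**Figure D5:**
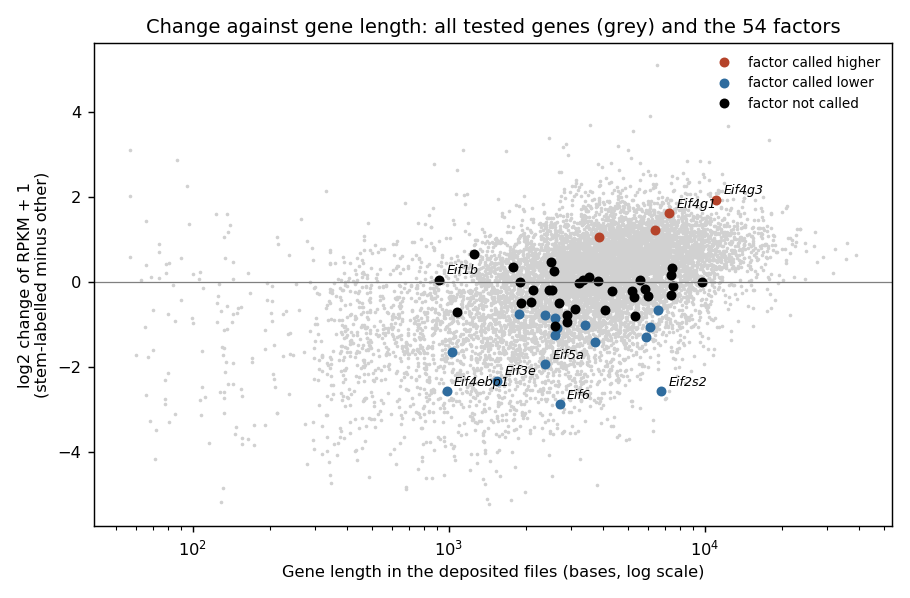
Log2 change of RPKM + 1 (stem-labelled minus other) against gene length (bases, log axis) for all 10097 tested genes in grey and the 54 factors in colour. Eif4g3 and Eif4g1 lie among long genes, many of which changed upward, whereas Eif2s2 lies well below the median of 0.55 for all genes in its length range.

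Gene length can be read beside these calls from genes of like length. Among the 18 longest factors (5176 to 11063 bases) 3 rose and 4 fell, where 48.8% and 8.97% of all tested genes of that length range were called higher and lower. Among the 18 shortest (917 to 2581 bases) 0 rose and 6 fell, where 11.2% and 42.3% were. The middle 18 (2590 to 4334 bases) held 1 increase and 6 decreases, where 27.7% and 22.5% were, and their median change of -0.72 stood beside 0.11 for all genes of that length.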

How the data were processed

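The authors sequenced messenger RNA from 4T1 clones in 6 libraries. Groups follow the tissue labels, and replicate numbers follow the titles. The authors deposited 1 value and a gene length for each of 19179 genes, 1 file per library. Neither the headers nor the labels name the unit, and the deposited values are taken as RPKM because value times length behaves as reads. The build mm9, TopHat2 2.0.9 and Bowtie2 2.0.6 are named without roles, per the submitters' processing notes, and the counting program and strand are not given in the sources used here. Coordinates in the files follow GRCm38, and 80.6% of the genes found in GENCODE M21 had the same start and end there. Value times length gave whole multiples of 1 step in every library for 100% of genes (tolerance 0.01), which returned the reads.

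limma 3.58.1 in R 4.3.3 was fitted with a variance trend to log2(RPKM + 1) of the deposited values. It was run over all 10097 genes with at least 1 RPKM in at least 3 of 6 libraries, two-sided, with Benjamini-Hochberg adjustment over all of them and calls at an adjusted p under 0.05. Fold changes on this scale understate those of low genes. Depth limits precision, and 1 read in a gene of 1 kilobase was worth 0.0311 to 0.0993 RPKM. For the length and GC correction, natural splines of log2 length and of transcript GC content (5 degrees of freedom each) were fitted to the deviation of every library from the mean of each gene, and the fit was subtracted. Alternatives were the replicate block, that correction, both together, upper-quartile scaling, rescaling to summed reads, no filter, a mean of at least 5 RPKM, a pseudocount of 0.1, no trend, limma-voom on the recovered reads and leaving out each library, with the tested genes kept. Shared sequence is the share of 50-base stretches of the longest GENCODE transcript found in another gene, and 14 of 57 factors have an exon overlapping a gene on the other strand. The fit was tested on simulated data.

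The members, gene lists, comparison and alternatives were chosen with earlier results of these data known. The naming rule took up to 8 largest increases and 8 largest decreases among called factors with a mean of at least 5 RPKM, and a list of factors picked by role, 19 of them tested. Eef1a2 was not analysed here. The labels do not say that equal replicate numbers mark a shared experiment.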

Additional observations from a re-analysis of the deposited data

How the results depend on the processing

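The count of factors called higher was 4 and that of factors called lower 16. With rescaling to summed reads they were 23 and 5, with upper-quartile scaling 7 and 10 (38.6% and 21.1% of all genes), and with no filter 10 were lower (12.1% of all genes). Leaving out single libraries gave 4 to 5 higher and 10 to 17 lower, the 10 arising without replicate 2 of the stem-labelled clones. Of all genes, 25.1% to 30% were then higher and 21.6% to 25% lower. All genes called numbered 5577, or 3477 with a mean of at least 5 RPKM, where only 5951 genes were tested, and 4747 to 5555 without single libraries. On rescaling, 20 of the 21 uncalled factors with a negative change turned positive. Among those the naming rule chose, these were Eef1b2 (0.75), Eef2 (0.32), Eif1 (0.47), Eif3a (0.70), Eif4a1 (0.72), Eif4a2 (0.11) and Eif4e (0.56), and with upper-quartile scaling Eef1b2 (0.067), Eif3a (0.041) and Eif4a1 (0.044). With the length and GC correction, alone or with the replicate block, Eef2k was -0.55, Eif4g2 -0.26 and Eif5b -0.59, and limma-voom gave -0.13 for Eif5b. Without single libraries the range was -0.33 to 0.015 for Eef1b2, -0.50 to 0.0053 for Eif3a, -0.13 to 0.38 for Eif4g2 and -0.19 to 0.12 for Eif5b. The causes were not tested. Counting limits the precision of the lowest factors, such as Eif4g3 with 462 reads over the other libraries.

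With the replicate block 4 factors were higher and 16 lower (27.1% and 24.5% of all genes), and 5212 genes were called in all. Deviations of same-numbered libraries correlated at -0.12, 0.03 and -0.08 for numbers 1 to 3, and none of the 3 stem-labelled libraries correlated best with its own number. With 3 libraries of each kind, such weak correlations cannot show whether equal numbers mark a shared experiment. The block called Eif4a2 lower (adjusted p = 0.0374) and left Eif2b2 uncalled (adjusted p = 0.0534), and with the length and GC correction it left Eif4b uncalled (adjusted p = 0.0826). The paralog ratios moved by less than their pooled SD of both groups (0.347 to 0.7) with a pseudocount of 0.1 and without single libraries. The ratio of Eef1a1 to Eef1a2 was not run, since Eef1a2 was not among the genes analysed here.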

Other observations

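A few ratios of levels per length were chosen after their values were seen and are given without a test. Eif4ebp1 stood at 12.7, 11.8 and 6.55 times the RPKM of Eif4e in the stem-labelled libraries, against 46.7, 73.9 and 29.7 times in the other libraries, so the transcript of the inhibitor was in excess of that of its target in all 6. Eif4g1 stood at 10.5, 7.51 and 7.48 times Eif4e in the stem-labelled libraries and at 2, 2.51 and 1.87 times in the other libraries. Eef1a1 was 1.06, 1.02 and 1.40 times Eef2 in the stem-labelled libraries, against 0.731, 0.392 and 0.534 times in the other libraries, and pseudogene copies share much of Eef1a1. None of the 3 ratios overlapped between the groups.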
